A study of Danio rerio with 3 samples.

Results

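The proteasome and ubiquitin enzyme genes of zebrafish (Danio rerio) scales were taken as all genes whose current symbol begins with psma, psmb, psmc, psmd, psme or ube2, or with usp followed by a digit. This rule found 97 of the 8793 genes that have a single symbol on the array, measured by 118 probe sets. Where a gene had several, the one of highest mean signal over the arrays stands for it. Scales, thin bony plates of the skin, were incubated in L-15 medium at 15 °C, for 6 h, and received no added compound (control), 1 nM benzo[c]phenanthrene (BcP), a polycyclic aromatic hydrocarbon, or 1 nM 3-hydroxybenzo[c]phenanthrene (3-OHBcP), the same molecule with a hydroxyl group at position 3. One array was hybridised for each of the 3 groups, so no difference below has a replicate check, no test was possible, and every value describes these 3 arrays. The number of fish and scales behind each array, their strain and age, and whether the control medium held a solvent are not stated by the labels.

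The proteasome is the large protease of the cytosol and nucleus that breaks down proteins tagged with chains of ubiquitin. Its core is a barrel of rings, in which the outer alpha rings (psma genes) gate the entry and the inner beta rings (psmb genes) hold the cutting sites. The cap that sits on the barrel holds a ring of ATPases that unfold the substrate (psmc genes) and further subunits that bind and strip ubiquitin (psmd genes). Ubiquitin is passed on by E2 conjugating enzymes (ube2 genes), attached to the target with the help of E3 ligases, and removed again by deubiquitinases, of which the USP enzymes (usp genes) are the largest family. In vertebrates some beta subunits are exchanged for inducible ones under interferon signalling, which changes the peptides made for display to T cells. Roles named below are those of the human or yeast counterparts.

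The 97 genes comprised 20 core genes, 18 cap genes, 3 genes for assembly chaperones of the cap (psmd5, psmd9 and psmd10), 3 core activator genes (psme1, psme2 and psme3), 27 ube2 genes and 24 usp genes, besides psme3ip1 and psmc3ip. By their names, psme3ip1 (a binding partner of the activator psme3), psmc3ip (a meiotic recombination factor) and usp6nl (a GTPase-activating protein) belong to none of these enzyme or subunit families, although the rule takes them. A gene was kept where its mean log2 signal was at least 5.35, the median over probe sets other than controls, which left 84 of the 97. All 20 core genes and all 18 cap genes were kept, and no kept gene of the 84 had an array below that level. The 13 genes below it were psmc3ip, ube2t, ube2r2, ube2ql1, ube2wb, usp3, usp6nl, usp13, usp16, usp20, usp21, usp38 and usp49. Of these, ube2ql1 stood at 4.61 on the control, 4.97 on the BcP and 4.53 on the 3-OHBcP array, and usp6nl at 3.99, 3.71 and 3.89, while usp3, usp13, usp21, usp38 and psmc3ip each held the same value on all 3 arrays.

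Values are the signal as deposited by the authors, which its range places on a log2 scale, and a difference of 1 is a doubling of signal. Among the 5248 genes kept of all 8793, 18.6% held exactly the same value on all 3 arrays and 51.6% on at least 2. For the 84 kept proteasome and ubiquitin enzyme genes these shares were 11.9% and 45.2%, so a difference of exactly 0 is common and is no precise measure of no change. Array medians over non-control probe sets were 5.32 for the control, 5.37 for BcP and 5.35 for 3-OHBcP. As a check of the tissue, the epidermal keratin genes krt4 and krt5 stood at 12.83 and 12.82 on every array. Of the 7 epidermis markers, these and tp63 were level, and the other 4 were lower with BcP, with cldne at 8.65 on the control, 8.26 on BcP and 8.40 on 3-OHBcP. The collagen gene col1a2 stood between 12.12 and 12.70 and the osteoclast protease gene ctsk at 10.15. Below the level filter lay the 3 pigment cell markers measured, the osteoblast regulator genes sp7 and runx2b, and the osteoclast marker csf1ra. Each group was whole scale tissue, in which fewer cells of a type and less RNA per cell cannot be told apart.

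Most of the 84 kept genes lay within 1.2-fold of the control with either compound. With BcP, 1 gene was at least 1.2-fold higher and 3 were at least 1.2-fold lower, which is 1.19% and 3.57%, beside 2.93% and 6.19% of all 5248 kept genes. With 3-OHBcP the counts were 2 higher and 6 lower (2.38% and 7.14%), beside 1.68% and 5.2% of all kept genes. Between the compounds, 3-OHBcP was at least 1.2-fold higher for 1 gene and lower for 1 gene (1.19% each), beside 3.49% and 3.43%. Only ube2d1b was past 1.5-fold, and only with BcP. Of all kept genes, 0.705% were that far apart in either direction with BcP, 0.21% with 3-OHBcP and 0.61% between the compounds. A fold of 1.2 is a log2 difference of 0.263 and stands in for a call here, since replicates are lacking. Genes nearest that fold were psmb13a (-0.34) past it and psmd7 (-0.23) short of it with BcP, psmc4 (-0.28) and ube2l3a (-0.23) with 3-OHBcP, and usp37 (-0.27) and psmb8a (0.23) between the compounds. The differences of BcP and of 3-OHBcP from the control share that 1 control array and are not independent.

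**Figure D1:**
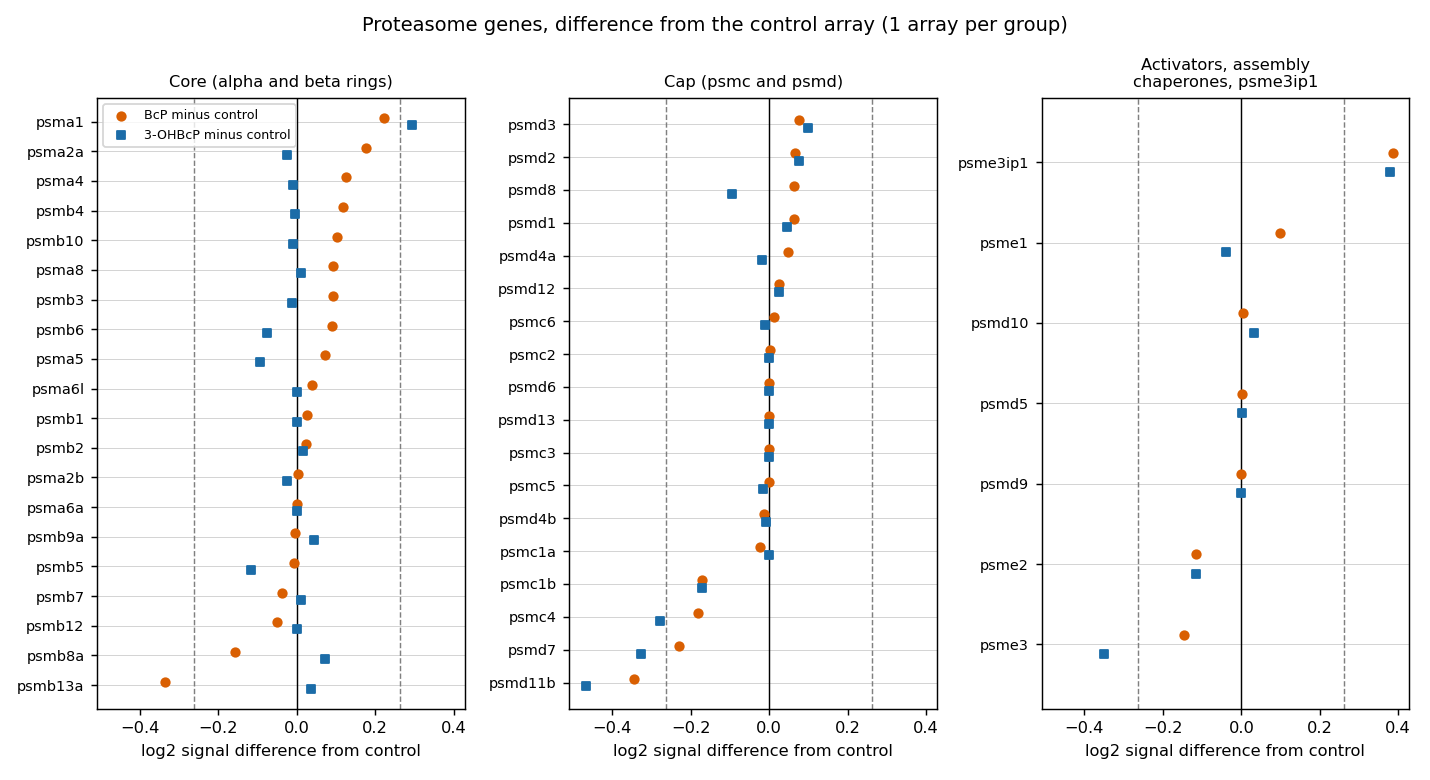
Log2 signal of the BcP array (circles) and the 3-OHBcP array (squares) minus the control array, 1 row per kept gene, for the proteasome core, the cap, and the activators and assembly chaperones. Dashed lines mark 1.2-fold, and most genes lie between them, with psmb13a, psmd11b, psmd7, psmc4, psme3, psma1 and psme3ip1 past a line in at least 1 comparison.

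In the alpha rings of the core, 7 of 8 genes were higher on the BcP array than on the control and psma6a was equal, with a median log2 difference of 0.08. Across all kept genes, 37.7% were higher by any amount, 37.1% lower and 25.2% equal, and the median difference was 0. With 3-OHBcP, 2 of the 8 were higher, 4 lower and 2 equal, beside 25.4%, 41.9% and 32.6% of all kept genes. The alpha subunit gene psma2a stood at 9.59 on the control, 9.76 on BcP and 9.56 on 3-OHBcP. Its paralogue psma2b was within 0.03 of the control on both, and stood at 8.97 on 3-OHBcP. Both genes thus had their lowest value with 3-OHBcP, and psma2a had the wider range. For psma4 the values were 10.05, 10.18 and 10.04 in the same order, for psma5 9.35, 9.43 and 9.26, and for psma8 9.75, 9.84 and 9.76. The BcP array was the highest of the 3 for each of these. The gene psma1 differed from them, at 9.56 on the control, 9.79 on BcP and 9.86 on 3-OHBcP, so that both treated arrays lay above the control by 0.22 and 0.29. It was the only core gene at least 1.2-fold higher in a comparison with the control (1.23-fold with 3-OHBcP). The remaining alpha genes, psma6l and psma6a, stayed within 0.04 of the control on both treated arrays.

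The constitutive beta ring genes showed a like order of arrays. Of 7 genes, 5 were higher and 2 lower with BcP (median 0.03), and 2 were higher, 4 lower and 1 equal with 3-OHBcP (median near 0, at -0.0048). The cutting subunits are psmb5 (chymotrypsin-like), psmb6 (caspase-like) and psmb7 (trypsin-like), and the others are structural. The gene psmb6 stood at 9.27 on the control, 9.36 on BcP and 9.20 on 3-OHBcP. The values of psmb5 were 7.73, 7.73 and 7.61, and those of psmb7 were 6.79, 6.75 and 6.80. These cutting subunits therefore did not share an order of arrays. Among the structural subunits, psmb4 stood at 9.85, 9.97 and 9.85, psmb3 at 10.21, 10.30 and 10.19, and psmb1 at 9.67, 9.70 and 9.67. On the BcP array psmb3 and psmb4 were above the control by 0.09 and 0.12, and on the 3-OHBcP array they lay within 0.02 of it. The smallest range was that of psmb2, from 9.35 to 9.37.

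Over the alpha and constitutive beta rings, the core without its inducible subunits, 12 of 15 genes (80.0%) were higher with BcP than the control, 2 lower and 1 equal, with a median of 0.07 and none past 1.2-fold. Against BcP, 12 of the 15 (80.0%) were lower with 3-OHBcP and 2 higher, with a median of -0.08, beside 42.9% lower, 26.1% higher and 31% equal among all kept genes. The BcP array held the highest value of the 3 for 11 of the 15 genes, beside 28.6% of all kept genes. This grouping was made after the values were seen, and the same BcP array serves in both counts. With each array centred on its median, 8 of the 15 were higher with BcP (median 0.03) and 11 were lower with 3-OHBcP than with BcP (median -0.06). Probe set names carry an S or an A for orientation, and 14 of these 15 core genes are marked S. Among all kept genes, 42.8% of those marked S and 32.5% of those marked A were higher with BcP, as were 44.8% of those marked S with a mean of at least log2 9. With the mean trend of signal level and orientation removed, 13 of 15 were higher with BcP (median 0.09). The median of all kept genes with BcP was 0.01 under that setting and -0.05 with centring. Removing the trend also breaks exact ties. The share of all kept genes higher was not counted under either setting, so these counts cannot be read as a stronger or weaker pattern. Leukocyte markers moved in the same direction on these arrays. Of the 7 kept markers, 6 were higher with BcP and 1 equal, and 6 were lower and 1 equal with 3-OHBcP against BcP, with the log2 of their summed signal at 14.23, 14.26 and 14.22 on control, BcP and 3-OHBcP. Of the 4 kept osteoclast markers, 3 were higher with BcP and 1 was equal, and 3 were lower with 3-OHBcP than with BcP, with a median of -0.12. The replication gene pcna was 0.18 higher with BcP and then 0.22 lower on 3-OHBcP than on BcP, while the other 3 kept markers of dividing cells were level. The haemoglobin gene hbaa1, the 1 kept erythrocyte marker, stood at 9.87, 10.24 and 9.90, and the summed muscle markers at 8.35, 8.61 and 8.30. Of 5 muscle markers measured, 2 were kept, and only mb (7.75, 8.03 and 7.58) had the order of that sum. The other kept marker, actc1b, was above the control by 0.25 and 0.13. The genes ckma, mylpfa and tnnt3b, below the level filter, were also above it on both treated arrays. The part of these markers in the core values was not tested.

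**Figure D2:**
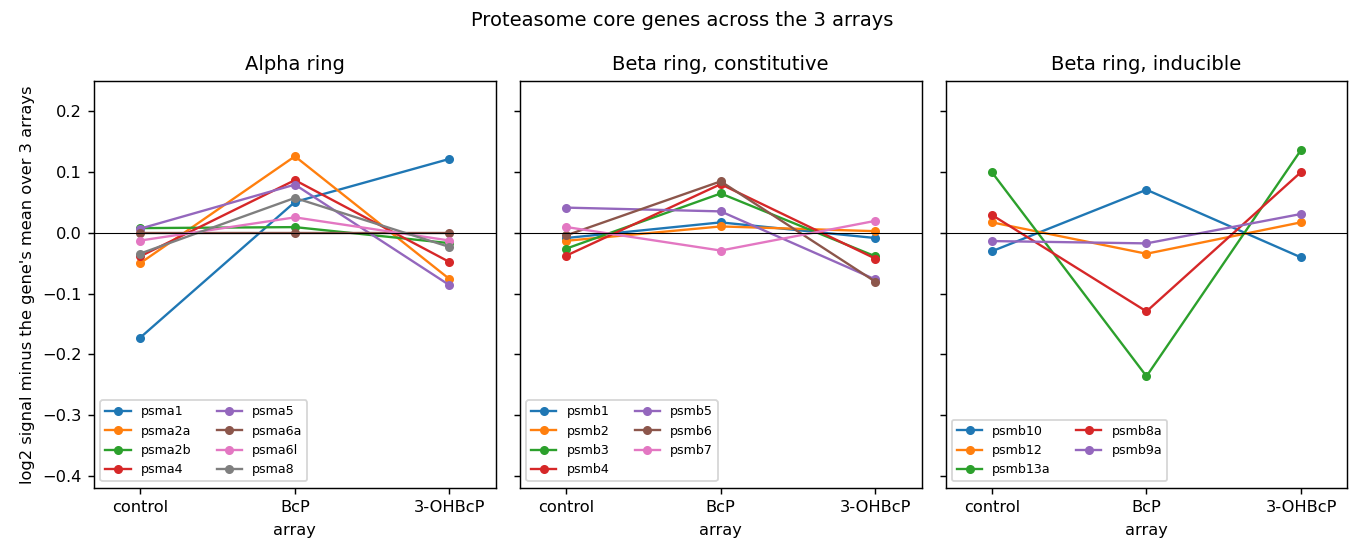
Log2 signal of each proteasome core gene on the control, BcP and 3-OHBcP arrays, minus that gene's mean over the 3 arrays, in panels for the alpha ring, the constitutive beta ring and the inducible beta ring (1 line per gene, 1 array per point). The BcP point is the highest for 11 of the 15 genes in the first and second panels and the lowest for 4 of the 5 in the third.

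The beta subunit genes grouped here as inducible, by gene number and not by measured induction, had another order of arrays. Of the 5 genes, 4 were lower with BcP than the control and 1 was higher, with a median of -0.05. One of the 4, psmb9a, was lower by 0.0038 only, and 3 of 5 were lower after quantile normalization, where psmb9a differed by 0.02, or with the trend of level and orientation removed. The 3-OHBcP array lay above BcP for 4 of 5. The BcP array was the lowest of the 3 for these 4 genes, as it was for 19.8% of all kept genes. The gene psmb13a, which lies beside psmb8a in the genome, stood at 9.14 on the control, 8.80 on BcP and 9.18 on 3-OHBcP. It was 1.26-fold lower with BcP and 1.29-fold higher with 3-OHBcP than with BcP, and it was the only core gene past 1.2-fold lower with BcP. For psmb8a, the inducible chymotrypsin-like subunit that replaces psmb5, the values were 9.57, 9.41 and 9.64, so that BcP was 1.12-fold lower than the control and 3-OHBcP was 1.17-fold higher than BcP. The constitutive counterpart psmb5 was the same on control and BcP to 0.01 and lower by 0.12 with 3-OHBcP. Smaller differences were seen for psmb12 (8.96, 8.91 and 8.96) and for psmb9a (8.22, 8.21 and 8.26), which replaces psmb6. The gene psmb10, which replaces psmb7, followed the constitutive core instead, at 9.38, 9.48 and 9.37.

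In the RefSeq gene table of the assembly GRCz12tu, psmb13a, psmb8a, psmb12 and psmb9a are consecutive protein-coding genes, between the class I histocompatibility gene mhc1uba and the peptide transporter gene tap2a, whereas psmb10 lies elsewhere. The entry of psmb13a overlaps those of psmb8a, psmb12, psmb9a and tap2a there, and the entry of psmb8a overlaps psmb13a, psmb12 and psmb9a. How far the probe sets of these 4 genes read separate transcripts was not tested. From the list of interferon and antigen presentation genes, 7 were kept, of which 2 were higher, 4 lower and 1 equal with BcP, and between the compounds 4 were higher with 3-OHBcP, 1 lower and 2 equal. None of the 7 was past 1.2-fold. Neither irf7 (-0.19 with BcP) nor irf9 (-0.21), factors of interferon signalling, reached that fold, and b2m, the light chain of class I molecules, was equal on all 3 arrays. Another such factor gene, irf1b, was highest with BcP, at 11.18, 11.27 and 11.09. The largest difference of the list was that of mhc1zba with either compound (-0.255 and -0.199). Against the order seen in psmb8a and psmb13a, the leukocyte markers above were highest on the BcP array. Whether the share of leukocytes bears on these subunits was not tested.

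The activators psme1 and psme2 form a ring that docks on the core and is also induced by interferon. The gene psme1 stood at 10.19 on the control, 10.29 on BcP and 10.15 on 3-OHBcP, and psme2 at 10.28, 10.16 and 10.16, so the partners differed in their order of arrays. The nuclear activator gene psme3 was lower on both treated arrays, at 7.98 on the control, 7.84 on BcP and 7.63 on 3-OHBcP, which is 1.11-fold and 1.27-fold lower. Its binding partner psme3ip1 was higher on both, at 6.08, 6.46 and 6.45 (1.31-fold with BcP and a log2 difference of 0.38 with 3-OHBcP). That value comes from 1 of 4 probe sets, whose name marks possible matches to other transcripts, and another probe set of the gene above the level filter held 6.19 on all 3 arrays. Without probe sets of that kind, the difference of psme3ip1 was 0 for both compounds.

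In the cap, most genes were level and a few were lower on both treated arrays. Of 18 genes, 8 were higher, 6 lower and 4 equal with BcP, with a median of 0 and 1 gene (5.56%) at least 1.2-fold lower, beside 6.19% of all kept genes. With 3-OHBcP, 4 were higher, 9 lower and 5 equal, and 3 of 18 (16.7%) were at least 1.2-fold lower, beside 5.2%. No cap gene was 1.2-fold higher with either compound or past 1.2-fold between the compounds. The lid subunit gene psmd11b stood at 6.54 on the control, 6.19 on BcP and 6.07 on 3-OHBcP, a difference of -0.35 and -0.47 (1.27-fold and 1.38-fold lower). The gene psmd7, whose product pairs with the deubiquitinating subunit of the lid, stood at 9.03, 8.80 and 8.70 (1.17-fold and 1.25-fold lower). For the ATPase gene psmc4 the values were 9.45, 9.26 and 9.17 (1.13-fold and 1.21-fold lower). Under the alternatives run, the psmc4 difference with 3-OHBcP ranged from -0.31 to -0.24. It was thus short of 1.2-fold (0.263) in at least 1 of them. The differences of psmd11b (-0.49 to -0.33) and psmd7 (-0.35 to -0.29) with 3-OHBcP stayed past that fold. With BcP, psmd11b ranged from -0.39 to -0.25. The 1 cap gene counted as lower with BcP was thus also short of 1.2-fold in at least 1 alternative. Osteoblast markers, of which 8 were kept, were higher with BcP for all 8 and with 3-OHBcP for 6, and their log2 summed signal was 14.35, 14.63 and 14.65 on control, BcP and 3-OHBcP. Some epidermis markers lay in the direction of these cap genes. Of the 7, 4 were lower with BcP and 3 with 3-OHBcP. The genes krt4, krt5 and tp63 were equal on all 3 arrays, and epcam differed by -0.06 and 0.002. Only evpla (-0.24 and -0.28) was lowest on 3-OHBcP, as these cap genes were. Both cldne (-0.40 and -0.26) and ppl (-0.09 and -0.06) were lowest on BcP. So was the log2 of the summed signal of the list, at 14.70, 14.67 and 14.69. Whether either marker list bears on the cap genes was not tested. The genes psmd11b, psmd7 and psmc4 each had their highest value on the control array and their lowest with 3-OHBcP, which lay below BcP by 0.12, 0.10 and 0.10.

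The other ATPase genes psmc1a, psmc2, psmc3, psmc5 and psmc6 stayed within 0.03 of the control on both treated arrays. The remaining one, psmc1b, differed by -0.17 with each compound, but its next probe set stood at 6.87, 7.07 and 7.05 and differed by 0.19 and 0.18. The direction for psmc1b therefore depends on the probe set, and the name of the one with the higher signal marks possible matches to other transcripts. Among the non-ATPase genes, the scaffold genes psmd1 (0.06 with BcP and 0.04 with 3-OHBcP) and psmd2 (0.07 and 0.08) and the lid gene psmd3 (0.08 and 0.10) lay slightly above the control. The second psmd1 probe set, also above the level filter, held 8.29 on all 3 arrays. The ubiquitin receptor genes psmd4a (0.05 and -0.02) and psmd4b (-0.01 on each) were close to the control. For psmd8 the values were 8.82, 8.88 and 8.72, the widest gap between the compounds in the cap (-0.16). The lid genes psmd6 and psmd13 held the same value on all 3 arrays, and psmd12 differed by 0.02 with each compound. The second psmd12 probe set, also above the level filter, differed by -0.03 with BcP and -0.20 with 3-OHBcP, so its direction depends on the probe set. The assembly chaperone genes psmd5, psmd9 and psmd10 stayed within 0.04 of the control.

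**Figure D3:**
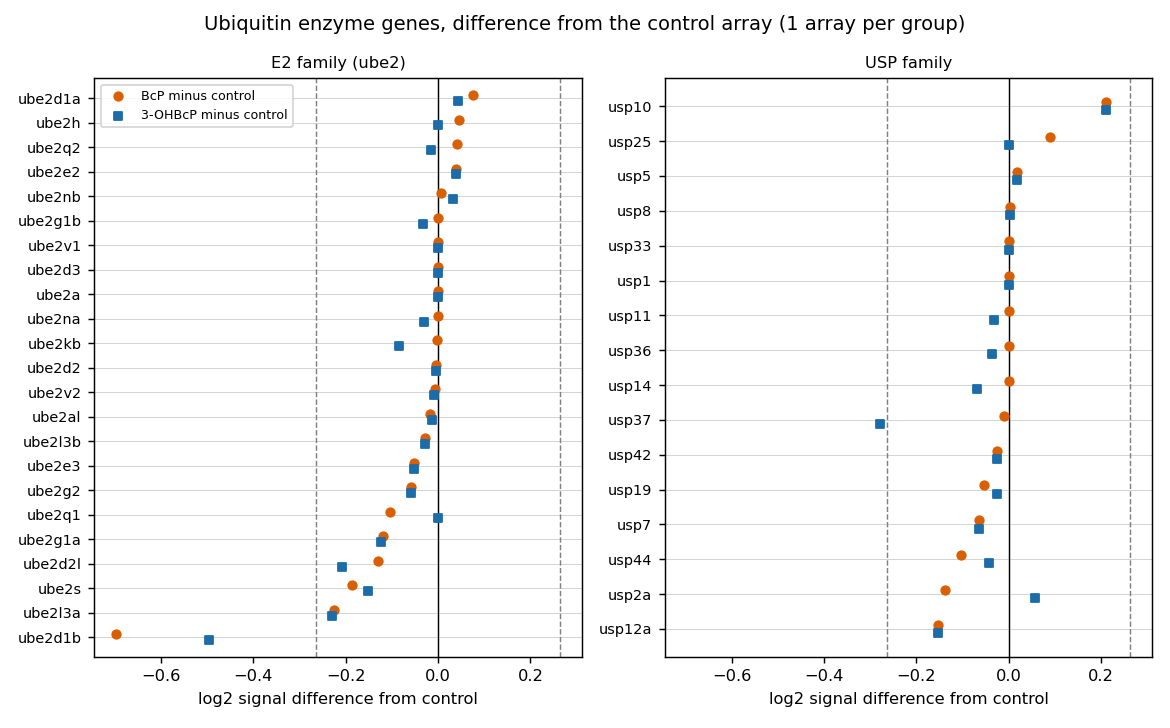
Log2 signal of the BcP array (circles) and the 3-OHBcP array (squares) minus the control array for the 23 kept E2 family genes and the 16 kept USP family genes, with dashed lines at 1.2-fold. The gene ube2d1b lies farthest from 0, at -0.70 and -0.50, and usp10 is the highest, at 0.21 for both arrays.

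The E2 genes were mostly level or slightly lower on the treated arrays. Of 23 kept, 6 were higher, 13 lower and 4 equal with BcP (median -0.0042). With 3-OHBcP, 3 were higher, 15 lower and 5 equal (median -0.01). Of all kept genes, 37.7% were higher and 37.1% lower with BcP, and 25.4% and 41.9% with 3-OHBcP. The control array held the highest value for 12 of the 23 genes, which is 52.2%, beside 27.1% of all kept genes. Some of these leads were very small, as for ube2kb (-0.0013 with BcP) and ube2d2 (-0.0042 with each compound). In the second probe sets of ube2s and ube2e3 the control was not the highest. This share was not checked with the arrays centred or by orientation. The gene ube2d1b, which encodes an E2 of the class that works with many E3 ligases, stood at 8.07 on the control, 7.37 on BcP and 7.58 on 3-OHBcP. It was 1.62-fold lower with BcP and 1.41-fold lower with 3-OHBcP, and its value with 3-OHBcP was 1.15-fold above that with BcP. It has 1 probe set, marked A. Its paralogue ube2d1a was at 6.99, 7.07 and 7.04, slightly above the control on both treated arrays. Of the others in this class, ube2d3 held 8.39 on all 3 arrays, ube2d2 differed by less than 0.01, and ube2d2l stood at 9.68, 9.55 and 9.47. The lower signal of ube2d1b was thus shared in direction by ube2d2l, by ube2d2 at -0.0042 only, and not by ube2d1a or ube2d3.

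Next in size was ube2l3a, an E2 that serves ligases with a catalytic cysteine, at 8.53 on the control and 8.30 on both treated arrays (1.17-fold lower with each). Its paralogue ube2l3b differed by -0.03 with each compound. The gene ube2g1a was at 7.90, 7.78 and 7.78, while its paralogue ube2g1b stayed within 0.04 of the control. The gene ube2s, which extends ubiquitin chains for the anaphase-promoting complex, differed by -0.19 and -0.15, but its other probe set, with a mean below the level filter, stood at 5.12, 5.48 and 5.27 and differed by 0.37 and 0.15. The direction of ube2s thus depends on the probe set. Among the genes slightly above the control with BcP were ube2h (0.05), ube2q2 (0.04) and ube2e2 (0.04). Little difference was seen for ube2na and ube2nb, the enzymes of signalling chains, or for their cofactor genes ube2v1 and ube2v2, all within 0.04 of the control. The gene ube2a, the counterpart of yeast Rad6, held the same value on all 3 arrays. Between the compounds, the largest differences of 3-OHBcP above BcP were those of ube2d1b (0.20) and ube2q1 (0.10). The largest below BcP were those of ube2kb and ube2d2l (-0.08 each).

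Of the 16 kept USP genes, 4 were higher, 7 lower and 5 equal with BcP, and 4 were higher, 9 lower and 3 equal with 3-OHBcP. Beside these stand 37.7% higher and 37.1% lower of all kept genes with BcP, and 25.4% and 41.9% with 3-OHBcP. None was past 1.2-fold with BcP. The gene usp10 stood at 7.35 on the control and 7.56 on both treated arrays, 1.16-fold higher with each. Its second probe set stood at 5.94, 6.20 and 5.97, so the difference held there with BcP (0.26) and was small with 3-OHBcP (0.03). The gene usp37, which takes part in cell cycle control, was at 6.09, 6.08 and 5.81, or 1.21-fold lower with 3-OHBcP. Of its 4 probe sets, another above the level filter stood at 5.74, 6.14 and 6.08 and differed by 0.40 and 0.34, past 1.2-fold in the other direction. It was the only gene of the 16 with several probe sets whose probe sets lay past 1.2-fold in both directions in 1 comparison, so its direction depends on the probe set.

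Other USP genes varied less. The gene usp12a was at 6.19, 6.04 and 6.04, and usp2a was at 6.18, 6.04 and 6.24, so that 3-OHBcP was 1.15-fold above BcP for usp2a. The gene usp25 was above the control with BcP alone (0.09), and usp44 was below it with both (-0.10 and -0.04). So was usp19 (-0.05 and -0.02), which was 0.03 higher with 3-OHBcP than with BcP. Those with well-known roles were close to level. The gene usp14, which sits on the cap and trims ubiquitin chains, differed by 0 and -0.07. For usp7, which acts on the ligase Mdm2, the difference was -0.06 with each compound. Its second probe set, also above the level filter, differed by 0.01 and -0.09. The gene usp5, which takes apart free chains, differed by 0.02 with each, and usp8 of the endosomes by less than 0.01. The genes usp1 and usp33 held the same value on all 3 arrays. Within the family, 12 of 16 genes held the same value on at least 2 arrays, beside 51.6% of all kept genes.

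**Figure D4:**
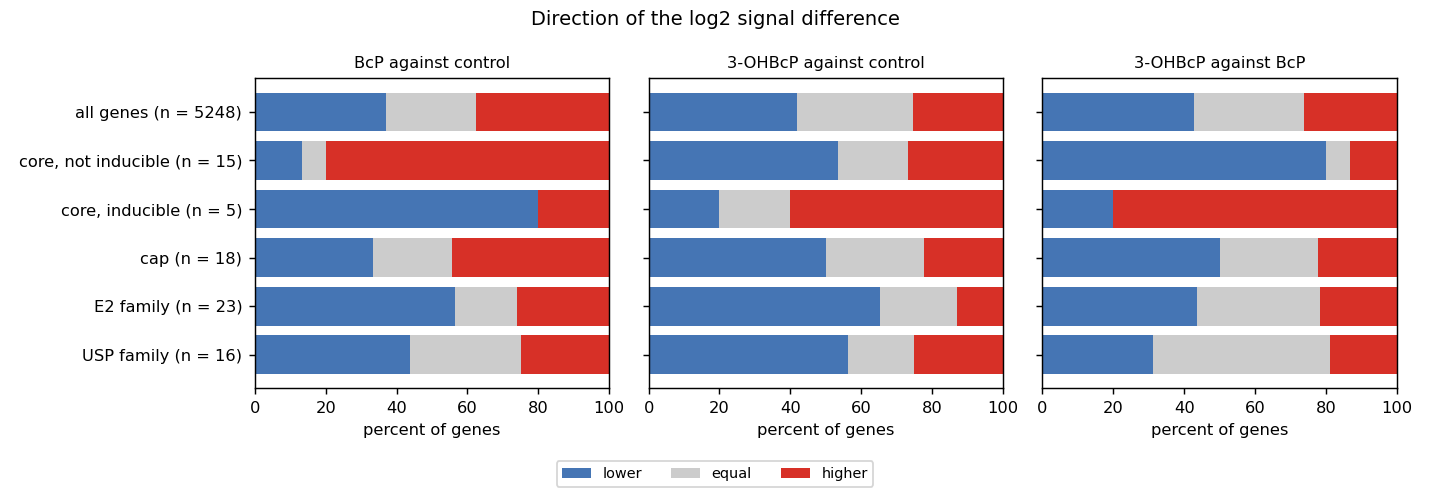
Percent of genes with lower, exactly equal or higher log2 signal in each of the 3 comparisons, for all 5248 kept genes and for the core without inducible subunits, the inducible core subunits, the cap, the E2 family and the USP family (number of genes in brackets). In the core without inducible subunits 80.0% were higher with BcP than the control, and 80.0% were lower with 3-OHBcP than with BcP.

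The compounds were compared at the same dose and time, 1 nM for 6 h, with 1 array each, so no interval can be put on any difference between them and none was tested. The largest difference of a proteasome gene was that of psmb13a (0.37 higher with 3-OHBcP), followed by psmb8a (0.23), psme3 (-0.20), psma2a (-0.20), psma5 (-0.17) and psmb6 (-0.17). Of these psmb13a was past 1.2-fold. In the cap 4 of 18 genes were higher with 3-OHBcP, 9 lower and 5 equal, with a median near 0 (-0.0010). Of the 39 kept ubiquitin enzyme genes 8 were higher, 15 lower and 16 equal, with a median of 0. Across all kept genes with a mean of at least log2 9, some core genes included, 30.0% were higher and 44.5% lower. Lower genes thus also outnumbered higher ones in that wider set, at a smaller share than the 80.0% of the core without inducible subunits. In that set, 25.4% of genes marked S were higher and 47.5% lower, and 41.2% and 37.0% of those marked A. Of the 15 core genes, 14 are marked S and 10 have a mean of at least log2 9.

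**Figure D5:**
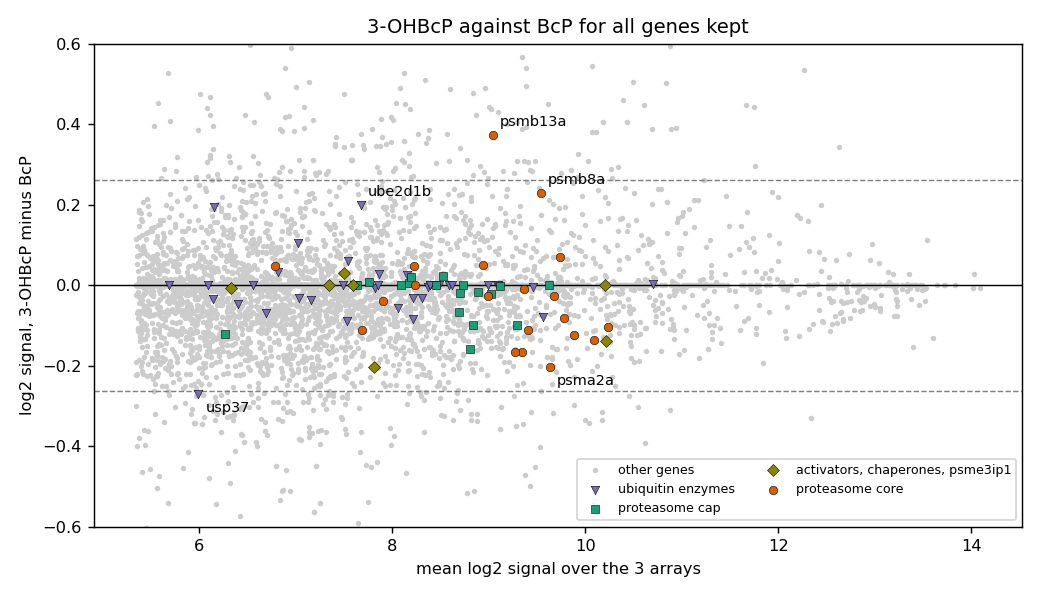
Log2 signal of 3-OHBcP minus BcP against the mean log2 signal over the 3 arrays, with the kept core, cap, activator and ubiquitin enzyme genes over the 5164 other kept genes in grey and dashed lines at 1.2-fold. The vertical axis ends at 0.6 on either side, which leaves out 28 other genes, and psmb13a lies above the upper line while most core genes lie below 0.

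Genes of the same pathway outside these families were taken from lists of assembly factors, ubiquitin genes, E1 activating enzymes, shuttle factors and E3 ligases. Further lists held other deubiquitinases, antigen presentation genes, and genes for the proteasome transcription factor and its processing. Of 159 listed genes 96 were measured and 83 kept. With BcP 1 of the 83 was at least 1.2-fold higher and 4 lower, with 3-OHBcP 1 was higher and 2 lower, and between the compounds 4 were higher with 3-OHBcP and none lower. Beside these stand 2.93% higher and 6.19% lower of all kept genes with BcP, 1.68% and 5.2% with 3-OHBcP, and 3.49% and 3.43% between the compounds. The counts against the control are smaller shares of the 83 than these, so the genes named here are values and not a result about the lists. The 4 lower with BcP were zyg11 (-1.12), the autophagy receptor gene sqstm1 (-0.33), the ligase gene xiap (-0.29) and keap1a (-0.26), which encodes a receptor of the Cul3 ligase. The ligase gene nedd4l was higher on both treated arrays, at 5.79 on the control, 6.14 on BcP and 6.12 on 3-OHBcP. The ligase subunit gene skp1 was also higher on both, at 9.68, 9.86 and 9.91, short of 1.2-fold. The shuttle factor gene rad23b, whose product carries tagged proteins to the cap, was lower on both at 6.64, 6.43 and 6.35, and so was the ligase scaffold gene cul3a at 7.77, 7.53 and 7.49. Both ran in the same order of arrays as those of psmd11b, psmd7 and psmc4. All of these were picked out as low with 3-OHBcP, so that order is in part fixed by the choice. The 3-OHBcP array was lowest for 24.8% of all kept genes.

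Of the 10 assembly factors and other subunits kept, 4 were higher, 2 lower and 4 equal with BcP. Against BcP, 7 were lower and 3 equal with 3-OHBcP, beside 42.9% lower, 26.1% higher and 31% equal of all kept genes. Some of these differences were very small, as for pomp (-0.01) and ecpas (-0.03). The assembly chaperone gene psmg1 was highest on the BcP array (0.19 above the control and 0.18 above 3-OHBcP), whereas psmg2, psmg3 and the inhibitor gene psmf1 were equal. The core maturation factor gene pomp differed by 0.01 with BcP. Ubiquitin itself was near level, with the polyubiquitin gene ubb at -0.05 and 0.06 and the fusion gene rps27a at -0.03 with BcP. Among the 6 kept E1 genes, uba1, the main ubiquitin activating enzyme, differed by 0.06 and -0.03. In mammals uba7 activates the interferon-induced modifier Isg15, and its values here were 7.35, 7.15 and 7.43, lowest with BcP and 0.28 higher with 3-OHBcP than with BcP. The BcP array was also lowest for psmb8a and psmb13a, for mdm4, xiap and zyg11, and for 19.8% of all kept genes. All these named genes were picked out by their difference between the compounds, so a shared order says little. The modifier gene isg15 held the same value on all 3 arrays. The ligase regulator gene mdm4 (0.38 higher with 3-OHBcP than with BcP) and the ligase genes xiap (0.29) and zyg11 were the others past 1.2-fold between the compounds. The values of zyg11, a substrate receptor of a cullin ligase, were 8.10, 6.98 and 8.18, so that the BcP array alone was low. Lowest of the listed genes between the compounds was birc5a, from the E3 ligase list, at 6.89, 7.02 and 6.83 (-0.19).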

How the data were processed

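RNA from 3 groups of scales, 1 array each, was measured on the Affymetrix Zebrafish Genome array. Each probe set has 1 value per array in the table the authors deposited, taken here to be log2 signal because of its range. The submitters' processing notes name Affymetrix Expression Console, without its algorithm, version or background correction. Per the labels' protocols, 500 ng of DNase-treated RNA went into labelling from the 3' end.

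Of 15617 probe sets, 115 controls were left out. The platform annotation gave 10795 of the other 15502 a single symbol, 135 several and 4572 none. Gene identifiers gave current symbols from RefSeq's GRCz12tu table, where 10711 of the 10795 and all 118 member probe sets were found. The log2 values were used as deposited, with no further scaling. A gene took its probe set with the highest mean, and 5248 of 8793 genes at or above the median signal were kept. Log2 differences and counts at 1.2-fold and 1.5-fold were computed in Python 3.11.15 with pandas 2.3.3. With 1 array per group no test, p-value or error was given, and the number of arrays limits the precision. The procedure was tested on simulated data.

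The members, lists and the 1.2-fold threshold were chosen with earlier results of these data known. Named were the proteasome genes, the 6 highest and 6 lowest kept ubiquitin enzyme genes of each comparison, genes whose probe sets differ, genes nearest 1.2-fold, and the 3 highest and 3 lowest listed pathway genes; others were chosen after their values were seen. Alternatives covered the level filter, centring, quantile normalization, an offset of 32, probe-set choice and symbols. No sequences are printed, since no sequence table was used here.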

Additional observations from a re-analysis of the deposited data

How the results depend on the processing

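No paired analysis was possible because each group has 1 array, and no replicate could be left out. Medians of the core, cap and ubiquitin enzyme genes moved by at most 0.1 (log2) under every alternative run, but they are small and their sign is not fixed: the core median with BcP ranged from -0.01 to 0.07 and the cap median with 3-OHBcP from -0.03 to 0.03. Quantile normalization, centring, the offset of 32 on the linear value, the level filter, the probe-set choice and the symbol source were planned, while removing the trend with signal level and orientation and leaving out psme3ip1, psmc3ip and usp6nl were chosen after seeing the data. Centring shifts the median of all kept genes by -0.05 with BcP and -0.03 with 3-OHBcP.

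The counts past 1.2-fold are small. Genes lower with 3-OHBcP numbered 4 in place of 6 under a 75th percentile filter. Genes lower with BcP numbered 4 with no level filter and 2 under the 75th percentile filter, in place of 3. Settings other than the level filter bear on both counts too. In at least 1 alternative psmd11b with BcP (-0.25) was short of 1.2-fold, as was psmc4 with 3-OHBcP (-0.24). Counts that changed by a factor of more than 1.5, or to 0, moved as follows. Genes lower with BcP numbered 5 in place of 3 with each array centred. Genes higher with BcP numbered 2 in place of 1 with no level filter or after quantile normalization, and 0 under a 75th percentile filter, when a gene's probe sets were averaged or without psme3ip1, psmc3ip and usp6nl. Genes higher with 3-OHBcP numbered 1 in place of 2 under those last 3 settings. For 3-OHBcP against BcP, genes lower numbered 2 in place of 1 with no level filter and 0 under a 75th percentile filter, centring, quantile normalization, the offset, averaged probe sets, removal of the trend or on leaving out probe sets with possible matches to other transcripts; each 0 is a count at 1 array per group. The difference of usp37 with 3-OHBcP turned from -0.28 to 0.36 after quantile normalization, where another probe set became the brightest, to 0.00320 with averaged probe sets and to 0.34 on leaving out probe sets with possible matches elsewhere. No other named gene past 1.2-fold turned its sign. The differences of ube2d1b with BcP ranged from -0.74 to -0.60, of psmb13a with BcP from -0.38 to -0.27 and of psmd11b with 3-OHBcP from -0.49 to -0.33.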
